A study of Mus musculus with 2 samples.

Results

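Growth hormone and IGF axis genes were compared in the livers of female NOG-TKm30 mice given ortho-toluidine (OTD), an aromatic amine, and of untreated controls. The 9 genes were taken by symbol from the 15348 genes listed: the growth hormone receptor Ghr, the transcription factor Stat5b, the feedback inhibitor Socs2, the ligand Igf1, the carrier subunit Igfals, the binding proteins Igfbp1, Igfbp2 and Igfbp4, and the growth hormone responsive gene A1bg. OTD mice received 0.6% OTD for 1 week and then 0.3% for 3 weeks, a total of 4 weeks, and control mice received 0% throughout. All mice carried the same transgene, a herpes simplex virus thymidine kinase cDNA (HSVtk mutant clone 30) driven by the mouse transthyretin enhancer and promoter, which is active in hepatocytes. The labels give an age of 16 weeks for both groups. NOG mice are severely immunodeficient and lack mature T, B and NK cells. Each group had 1 library, made from the mixed RNA of 5 OTD mice or of 3 control mice. One protocol field names C57BL mice, whereas the strain label, titles and design text name NOG-TKm30.

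Growth hormone is secreted by the pituitary and acts on hepatocytes through GHR, which activates the kinase JAK2 and then STAT5 proteins. STAT5B drives transcription of Igf1, Igfals and Socs2, and the pattern of hormone pulses differs between male and female rodents and sets sex differences in liver genes. IGF-I circulates bound to binding proteins, and IGFBP1 is known as the one most acutely regulated, through repression by insulin and release of that repression by FOXO factors in fasting.

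Igfbp1 was about 2.12-fold higher in the OTD pool and A1bg 2.57-fold lower. Transcripts of the hormone receptor, the signal transducer and Igf1 itself stood within 1.5-fold of control. Upstream sequence is shown for these 2 genes, which lay furthest from control in opposite directions. It is also shown for Igfals, which holds a STAT5-type motif as A1bg does. The 3 genes were chosen with their ratios known, and a link between motif and ratio was not tested. Each sequence is the 250 bases before an annotated RefSeq transcription start on GRCm38.p6, 5′ to 3′ on the gene's strand. Capitals mark matches to TTCNNNGAA, the form that STAT5 dimers prefer and which reads alike on both strands, or to CAAAACA and CAAAATA on either strand, cores of the insulin response sequence that FOXO factors bind. The Igfbp1 stretch is chr11:7197537-7197786 on the plus strand, the A1bg stretch chr15:60921271-60921520 on the minus strand and the Igfals stretch chr17:24877981-24878230 on the plus strand.
Igfbp1: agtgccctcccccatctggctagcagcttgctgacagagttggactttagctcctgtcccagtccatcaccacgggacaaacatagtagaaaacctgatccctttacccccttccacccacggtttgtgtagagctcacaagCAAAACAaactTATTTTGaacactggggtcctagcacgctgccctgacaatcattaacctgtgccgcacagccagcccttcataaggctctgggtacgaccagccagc
A1bg: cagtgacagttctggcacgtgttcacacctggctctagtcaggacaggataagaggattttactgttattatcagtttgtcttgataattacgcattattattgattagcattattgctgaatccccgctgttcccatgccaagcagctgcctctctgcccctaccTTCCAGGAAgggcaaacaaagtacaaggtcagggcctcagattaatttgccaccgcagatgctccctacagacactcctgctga
Igfals: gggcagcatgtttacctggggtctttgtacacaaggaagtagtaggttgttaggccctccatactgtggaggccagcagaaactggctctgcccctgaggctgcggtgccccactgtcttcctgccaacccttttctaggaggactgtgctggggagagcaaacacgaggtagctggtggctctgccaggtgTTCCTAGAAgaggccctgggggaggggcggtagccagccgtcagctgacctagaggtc

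Counting back from −1 at the base before the start, Igfbp1 held CAAAACA at −108 to −102 and, without overlap, TATTTTG at −97 to −91, which is CAAAATA read on the other strand. A1bg held TTCCAGGAA at −84 to −76, and Igfals held TTCCTAGAA at −58 to −50. A second annotated start of Igfals held TTCTCAGAA at −236 to −228. A further annotated start of Igfals held none of the motifs. The promoter table matched 8 of the 9 genes, all but Socs2, with 13 starts, and 4 of those starts held any of the 3 motifs. Over all 32851 starts of the table, 7.02% held TTCNNNGAA, 5.56% held CAAAACA and 3.95% held CAAAATA in the same window. The share of all starts with any of the 3 was not computed, so the 4 of 13 has no like share beside it. These matches describe letters only, and binding was not measured here.

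The values are the authors' normalized counts, 1 per gene and library. The libraries held 14685193 reads for OTD and 13569189 for control over the listed genes. The hepatocyte markers Alb, Ttr and Apob were abundant in both, with Alb at 7.10% of OTD reads and 8.01% of control reads. Rn45s, the ribosomal RNA precursor, took 2.66% of OTD reads and 1.47% of control reads. With 1 library per group no test could be made, no p-value is given, and the spread between pools is unknown. The range beside a ratio is a 95% interval by the exact Clopper-Pearson method, from how a gene's reads divide between the libraries, and covers counting error only. Log2 ratios are of OTD over control after adding 1 to each level, so that differences of weakly expressed genes come out too small. A mean level of at least 10 over the libraries makes a gene measured, and the 2-fold threshold is a log2 ratio of at least 1 in size.

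All 9 genes were measured, with 292 to 17851 reads in a library. One of them, Igfbp1, was at least 2-fold higher in OTD, where 0.210% of the 7602 measured genes were, and 1 of them, A1bg, was at least 2-fold lower, where 0.210% of measured genes were. Together these were 2 of 9 past 2-fold, against 0.421% of measured genes. The 9 genes were chosen with earlier results of these data known, so these shares are no test of enrichment. The remaining 7 lay within 1.5-fold, as did 97.6% of measured genes. The median log2 ratio of the 9 was −0.040, against −0.0063 over all measured genes, with 4 of the 9 above 0 where 48.4% of measured genes were. The counting interval left out a ratio of 1 for 9 of 9 members, against 38.2% of measured genes. That interval narrows as reads increase, so it separates small ratios of abundant genes that 1 pool per group cannot tell from differences between pools.

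**Figure D1:**
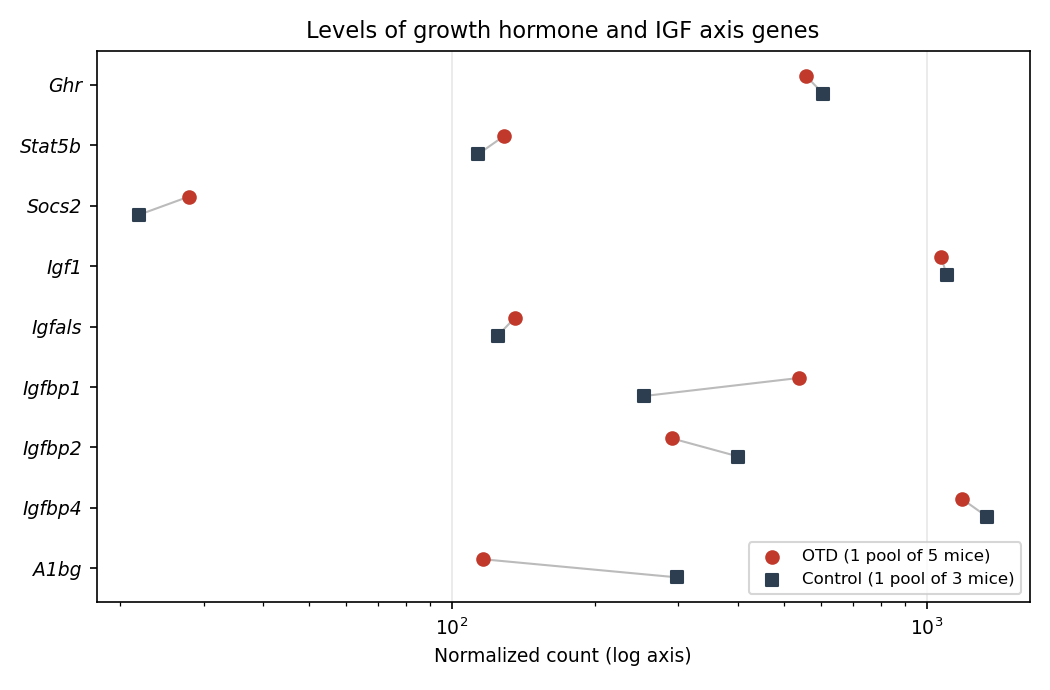
Normalized count of each of the 9 genes (log axis) in the OTD library (circles, 1 pool of 5 mice) and the control library (squares, 1 pool of 3 mice), with a line joining the pair. Igfbp1 was at 538.4 in OTD and 253.4 in control, and A1bg at 116.2 in OTD and 298.0 in control, while the other pairs lie closer together.

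Ghr encodes the growth hormone receptor, and its gene lies on chromosome 15 at 3317760 to 3583492 (GRCm38). Its level was 556.4 in the OTD pool and 605.7 in the control pool. The ratio of OTD over control was 0.919 (0.891 to 0.947), and 50.5% of measured genes had a log2 ratio at least as large in size. Jak2, the kinase bound to the receptor, was at 25.38 in OTD and 25.39 in control, a ratio of 1.00 (0.861 to 1.16). Both pools thus held transcripts of the receptor and its kinase at similar levels, and protein was not measured.

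Stat5b, on chromosome 11 at 100780731 to 100850724, encodes the main STAT5 of hepatocytes. It stood at 128.6 in OTD and 113.4 in control, with a ratio of 1.13 (1.06 to 1.21). Its paralog Stat5a was at 22.4 in OTD and 19.2 in control, and its ratio of 1.17 had an interval from 0.990 to 1.38. Of the 50-base stretches of the longest Stat5b coding transcript, 11.8% occur in other genes, mostly in Stat5a, so reads of the 2 paralogs could be split between them.

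Socs2 encodes a suppressor of cytokine signalling that is induced by STAT5 and limits signalling from the receptor. It was at 27.9 in OTD and 21.9 in control, from 418 and 292 reads. The ratio was 1.27 (1.09 to 1.48), and 11.0% of measured genes had a log2 ratio at least as large. It was the least abundant of the 9, and 18.4% of its 50-base stretches occur in other genes, most of them in Gm9847. Cish, another STAT5-induced suppressor, was at 3.41 in OTD and 4.36 in control from 51 and 58 reads, and its ratio of 0.782 had an interval that held 1 (0.526 to 1.16), so a difference could not be detected at this depth.

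Igf1, on chromosome 10 at 87858265 to 87937042, encodes the growth factor that hepatocytes release into blood. Its level was 1072 in OTD and 1102 in control, a ratio of 0.973 (0.951 to 0.995). Its log2 ratio of −0.040 turned to 0.015 after scaling both libraries to the same total and to 0.033 when Rn45s was left out of that total, so no direction is given for Igf1. A larger log2 ratio in size was found for most genes, since 83.0% of those measured were at or beyond that of Igf1.

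Igfals encodes the acid-labile subunit, which holds IGF-I in a ternary complex with IGFBP3 or IGFBP5. The gene lies on chromosome 17 at 24865997 to 24882010. It was at 135.9 in OTD and 124.9 in control, with a ratio of 1.09 (1.02 to 1.16). Of its complex partners, Igfbp3 was at 53.6 in OTD and 46.1 in control, a ratio of 1.16 (1.05 to 1.29), and Igfbp5 at 36.4 in OTD and 30.4 in control, a ratio of 1.20 (1.05 to 1.36). All 3 transcripts of the ternary complex proteins beside Igf1 were higher in the OTD pool by less than 1.5-fold.

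Igfbp1 encodes a binding protein that is made in hepatocytes and controls how much IGF-I is free. The gene lies on chromosome 11 at 7197782 to 7202546. Its level was 538.4 in OTD, from 8060 reads, and 253.4 in control, from 3373 reads. The ratio was 2.12 (2.04 to 2.21), and its log2 ratio of 1.08 was the 13th highest of the 7602 measured genes. Under the 6 alternatives of pseudocount and scaling the log2 ratio ranged from 1.06 to 1.16. Igfbp3 is its neighbour on the opposite strand, with 3539 bases between the gene ends, and its ratio was 1.16.

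Igfbp2, a binding protein of hepatocytes that is abundant in serum, lies on chromosome 1 at 72824503 to 72852474. It was at 290.5 in OTD and 401.0 in control, with a ratio of 0.725 (0.696 to 0.754). Its log2 ratio of −0.46 was equalled or exceeded in size by 4.67% of measured genes. Igfbp5 lies next to it on the opposite strand, 5457 bases away, and was on the other side of control with its ratio of 1.20.

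Igfbp4 encodes a binding protein that holds back IGF action until the protease PAPP-A cleaves it. The gene lies on chromosome 11 at 99041244 to 99054392. It was at 1185 in OTD and 1341 in control, a ratio of 0.884 (0.866 to 0.902). Pappa, the gene of that protease, was at 0.27 in OTD and 0.15 in control, near the level of 3 reads, which is 0.200 in OTD and 0.225 in control.

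The binding proteins were next set against each other within each library, where the scaling of the columns drops out. There were 1.85 Igfbp1 reads for each Igfbp2 read in OTD and 0.632 in control, a ratio of ratios of 2.93 (2.77 to 3.10, an approximate 95% interval from the 4 read numbers, counting error only). Igfbp1 over Igfbp4 was 0.454 in OTD and 0.189 in control, and Igfbp1 over Igf1 was 0.502 in OTD and 0.230 in control. Igfals over Igf1 was 0.127 in OTD and 0.113 in control, a ratio of ratios of 1.12 (1.05 to 1.20).

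Levels can be compared between genes only per length, and normalized counts were divided by the length in kb of the longest annotated coding transcript. On that scale Igfbp1 came first of the 9 in OTD at 353.0 per kb and after Igfbp4 and Igfbp2 in control at 166.2 per kb. Igfbp4 came second in OTD at 309.4 per kb and first in control at 350.1 per kb, and Igfbp2 followed in OTD at 222.3 per kb and second in control at 306.8 per kb. Igf1 stood at 152.0 per kb in OTD and 156.3 per kb in control, and Ghr at 133.3 per kb in OTD and 145.1 per kb in control. A1bg stood at 63.8 per kb in OTD, below Ghr, and at 163.7 per kb in control, above Igf1. Igfals, Stat5b and Socs2 were the lowest, in that order, in both libraries, with Socs2 at 12.6 per kb in OTD and 9.87 per kb in control. Neighbours in this order had separate counting intervals, except that in control A1bg overlapped both Igfbp1 and Igf1. These intervals leave out the choice of transcript length. Where shorter transcripts are in use, the order and the shares that follow could differ.

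The 6 binding protein genes Igfbp1 to Igfbp6 summed to 915.8 per kb in OTD and 849.7 per kb in control. Igfbp1 made up 38.5% of that sum in OTD and 19.6% in control. Igfbp2 made up 24.3% in OTD and 36.1% in control, and Igfbp4 33.8% in OTD and 41.2% in control. Igfbp3, Igfbp5 and Igfbp6 each stayed under 3% in both libraries. The summed transcripts were 1.08 times those of control, a smaller difference than that of Igfbp1 alone.

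**Figure D2:**
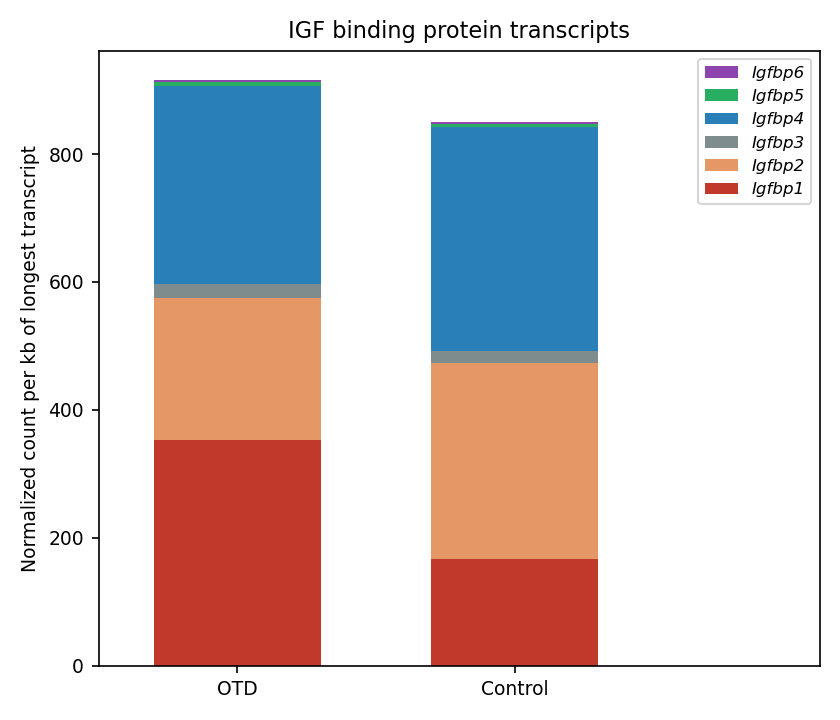
Stacked normalized counts per kb of the longest transcript of Igfbp1 to Igfbp6 in the OTD library (left) and the control library (right), 1 pool each, with no error bars since there are no replicates. The Igfbp1 segment is 353.0 per kb in OTD and 166.2 per kb in control, and the Igfbp2 and Igfbp4 segments are smaller in OTD.

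A1bg encodes alpha-1-B glycoprotein, a secreted protein of the immunoglobulin superfamily whose liver transcript is female-biased and depends on growth hormone in mice. The gene lies on chromosome 15 at 60896859 to 60923012. Its level was 116.2 in OTD, from 1739 reads, and 298.0 in control, from 3967 reads. It was 2.57-fold lower in OTD (2.42 to 2.72), and its log2 ratio of −1.35 was the 4th lowest of the measured genes and ranged from −1.36 to −1.28 under the 6 alternatives of pseudocount and scaling. Relative to Igf1 reads in the same library, A1bg was at 0.108 in OTD and 0.270 in control. The annotation has an antisense gene overlapping A1bg (4930402D18Rik) and another overlapping Igf1 (Igf1os), neither used here, and whether the counting kept strand is not stated, so antisense reads could be included in either value. In bulk liver, fewer cells of a type and less RNA per cell cannot be told apart.

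**Figure D3:**
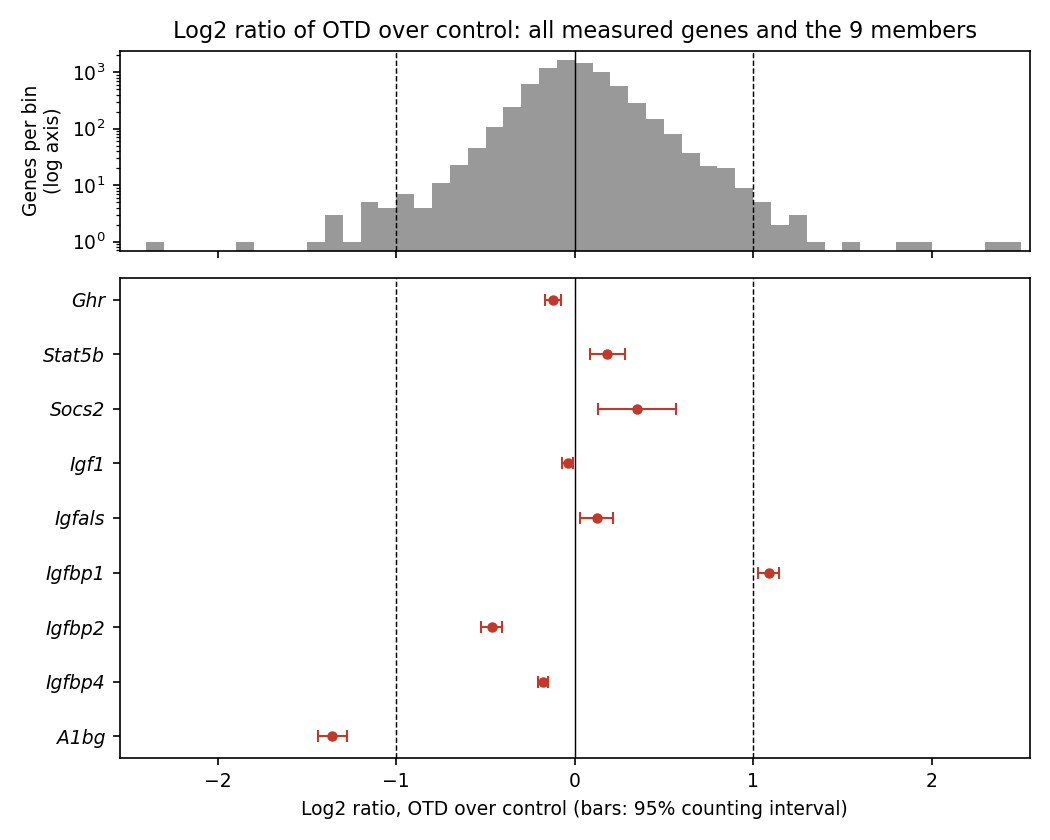
Log2 ratio of OTD over control for all 7602 measured genes (top, genes per bin on a log axis, values beyond 2.5 in size in the end bins, computed with a pseudocount of 1) and for the 9 genes (bottom, without a pseudocount, bars show the 95% counting interval). Dashed lines mark a log2 ratio of 1 in size, which Igfbp1 and A1bg pass in opposite directions.

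Among genes with a mean level of at least 100, those nearest to Igfbp1 in log2 ratio over the 2 libraries were Fasn at 1.14, Ces1g at 0.99 and Acly at 1.21. Fasn and Acly encode enzymes of fatty acid synthesis and Ces1g a carboxylesterase. Those nearest to A1bg were Mup17 at −1.30, Cyp4a10 at −1.41 and Mup1 at −1.22. Mup17 and Mup1 encode major urinary proteins, pheromone carriers that depend on growth hormone in mice, and Cyp4a10 a fatty acid hydroxylase. A likeness over 2 libraries is a description of these pools.

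Other genes of growth hormone signalling gave the wider pathway. Of 18 genes from the receptor complex to STAT5 cofactors, 15 were measured, and the median log2 ratio was 0.058. Of these 15, 0 passed 2-fold in either direction, where 0.421% of all measured genes did. The largest difference was in Lepr, the leptin receptor, which signals through the same kinase and was at 52.1 in OTD and 81.2 in control, a ratio of 0.642 (0.584 to 0.704). Onecut1, a hepatocyte transcription factor, had a ratio of 1.27 (1.03 to 1.57) and the adaptor Shc1 of 1.17 (1.07 to 1.29). Prlr, the prolactin receptor and the most abundant of the list, was at 469.8 in OTD and 442.1 in control. Cux2, a repressor of male-biased genes in female liver, was at 31.2 in OTD and 27.1 in control, and Bcl6, its male-biased counterpart, at 47.8 in OTD and 48.5 in control.

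Of 19 further IGF ligands, receptors, binding proteins and proteases, 11 were measured and 0 passed 2-fold, where 0.421% of all measured genes did. The median log2 ratio of the list was −0.016 and ranged from −0.068 to 0.058 over the alternatives. Irs2, an adaptor of the insulin and IGF receptors, was at 183.6 in OTD and 143.0 in control, a ratio of 1.28 (1.21 to 1.36). Igf1r, the IGF-I receptor, was low at 11.2 in OTD and 9.32 in control, and its ratio of 1.20 had an interval from 0.944 to 1.52. Plg, whose product plasmin cleaves binding proteins, was the most abundant at 3111 in OTD and 3437 in control. Igf2, the second ligand, had 11 reads in OTD and 15 in control.

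Because Igfbp1 is repressed by insulin through FOXO1, 16 other insulin and FOXO responsive genes of hepatocytes were read beside it. All 16 were measured and 0 passed 2-fold, where 0.421% of all measured genes did. Of the 16, 5 had a log2 ratio above 0 and 11 below, and the median was −0.076. Srebf1, a lipogenic transcription factor that insulin raises, was at 266.8 in OTD and 164.5 in control, a ratio of 1.62 (1.54 to 1.71). Pdk4, a kinase that insulin represses, had a ratio of 0.727 (0.677 to 0.780), and Angptl4, a lipase inhibitor raised in fasting, of 0.775 (0.740 to 0.811). Pck1, the gluconeogenic enzyme and most abundant of the list, was at 3979 in OTD and 4162 in control, a ratio of 0.956 (0.945 to 0.967). G6pc, the other classic FOXO target of gluconeogenesis had a ratio of 1.20 (1.18 to 1.23). None of these 16 genes was as far from control as Igfbp1. Of all measured genes, 0.329% had a log2 ratio at least as large in size as that of Igfbp1.

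A1bg was also read beside sex-biased genes that depend on growth hormone. Of 25 other female-biased genes, 20 were measured. Of these, 1 was at least 2-fold lower, where 0.210% of all measured genes were, and 0 at least 2-fold higher. Log2 ratios were below 0 for 12 and above 0 for 8. The 1 gene past 2-fold was Cyp4a14, which is also a PPAR-alpha target, at 141.0 in OTD and 701.2 in control. Prom1 (ratio 1.86, 1.49 to 2.33) and Nipal1 (1.75, 1.52 to 2.02) were on the other side of control. Sult3a1, a sulfotransferase and the most abundant, was at 1009 in OTD and 960.4 in control. The median log2 ratio of the list was −0.039.

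Of 26 male-biased genes, 16 were measured and 0 passed 2-fold, where 0.421% of all measured genes did. The median log2 ratio was −0.017, with 7 genes above 0 and 9 below. Cyp2d9 had a ratio of 1.85 (1.67 to 2.06), Gstp1 of 1.53 (1.46 to 1.60) and Selenbp2 of 1.37. Mup3, the most abundant, was at 1126 in OTD and 1327 in control. Mup3 and the other major urinary protein genes of this list are also counted in the list of their family, read next. The measured members of that family past 2-fold are not in the male-biased list, so its count of 0 depends on that choice. Of the 10 measured major urinary protein genes, 4 were at least 2-fold lower and 1, Mup19, at least 2-fold higher. Over all measured genes 0.210% were lower and 0.210% higher by that threshold. Mup19 had 434 reads in OTD and 11 in control. The 17 listed members summed to 7028 in OTD and 13598 in control. Mup10, the most abundant, was at 2685 in OTD and 5658 in control. The median log2 ratio of the measured members was −0.58, and it ranged from −1.05 over 6 members with a minimum mean of 50 to −0.51 with Rn45s left out of the scaling total. Copies of this family share sequence, so the values of single members are uncertain.

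**Figure D4:**
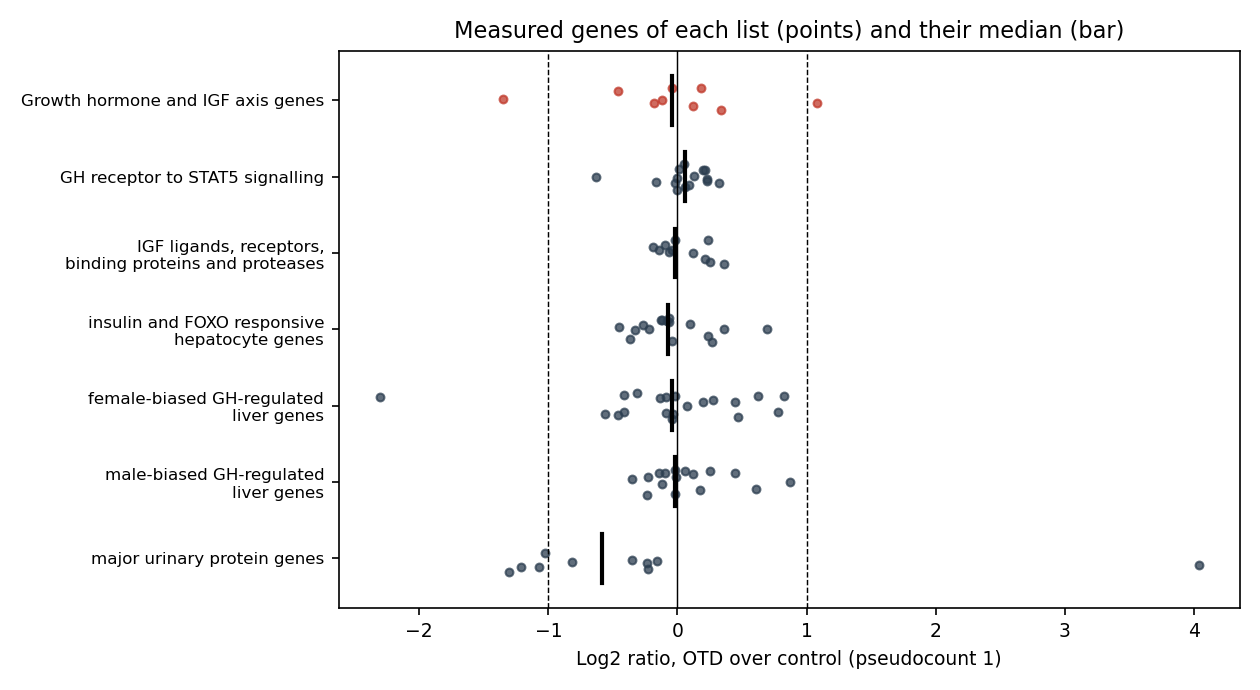
Log2 ratio of OTD over control (pseudocount 1) of each measured gene (points) and the median (bar) for the 9 growth hormone and IGF axis genes and 6 related lists, with dashed lines at 1 in size. The medians of the first 6 rows lie between −0.076 and 0.058, and that of the major urinary protein genes at −0.58, which was −1.05 with a minimum mean of 50.

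Markers of liver cell types were read in the same libraries. The 8 hepatocyte markers had a median log2 ratio of −0.12, with 7 below 0, where 48.4% of measured genes were above 0. That median was −0.069 with both libraries scaled to the same total and −0.051 with Rn45s left out of that total. The 8 summed to 102773 in OTD and 117955 in control, of which Alb alone was 69694 in OTD and 81661 in control. Median log2 ratios were −0.13 for 9 measured Kupffer cell markers, −0.067 for 10 sinusoidal endothelial markers, −0.046 for 7 stellate cell and fibroblast markers, −0.084 for 3 cholangiocyte markers and 0.087 for 4 erythroid markers. The cholangiocyte median turned to 0.22 over 5 markers with a minimum mean of 1, and the erythroid median was 0.45 over 2 markers with a minimum mean of 50. Of the lymphoid markers 1 of 8 was listed, Cd4, at 1.07 in OTD and 1.73 in control, and 3 of 5 neutrophil markers were listed, each with a level below 1. Relative to Alb reads, Igfbp1 was 2.49 times control in the OTD pool (2.39 to 2.59) and A1bg 2.19-fold lower (2.07 to 2.32). Ratios of the 8 hepatocyte markers ran from 0.707 for Hnf4a to 1.07 for Tat, with Alb at 0.853 and Ttr at 0.961. The values relative to Alb therefore depend on the marker used. The part of cell composition in the smaller ratios was not tested.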

How the data were processed

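The labels' protocols describe ribosomal RNA depletion and a strand-keeping kit, with an input of 200 ng RNA. The deposited table holds a normalized expression signal per gene symbol, which the authors derived from counts. Tools named by the submitters' processing notes, without a role, are Trimmomatic 0.38, Bowtie2, RSEM and edgeR, with build mm10. Annotation, gene filter and strand setting are not given there. All values (100%) in each column were whole multiples of its smallest nonzero value (tolerance 1e-06), which was taken as 1 read. Whether these read numbers had been rounded from estimates is not stated, and the intervals treat them as exact. No count test could be run on them, since 1 library per group leaves 0 residual degrees of freedom. The columns, whose names carry the unexplained word Wild, were matched to groups by their words for control and OTD.

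Ratios, intervals and log2 ratios (pseudocount 1, mean of at least 10) were computed with Python 3.11.15, numpy 2.4.6, pandas 2.3.3 and scipy 1.17.1, and figures with matplotlib 3.10.9. The 2-fold call and the interval were tested on simulated counts that held counting error only, with no differences between mice or pools. Coordinates and lengths came from GENCODE M21 (GRCm38) and promoters from RefSeq. The members, gene lists and motifs were chosen with earlier results of these data known. Named genes were the 9 members, and the 3 largest absolute log2 ratios and the most abundant gene of each list. The 3 genes nearest to Igfbp1 and to A1bg were also named. Of the genes this rule takes from cell type lists, only Alb, Apob, Hnf4a and Prom1 are named, the others entering list values. Jak2, Stat5a, Cish, Igfbp3, Pappa, Igf2, Cux2, Bcl6, G6pc, Igfbp6, Rn45s, Ttr, Tat and Cd4 fall outside that rule. They were chosen after their values were seen. Alternatives were pseudocounts of 0.5 and 10, 4 other scalings, 3 other filters and thresholds of 1.5-fold and 3-fold.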

Additional observations from a re-analysis of the deposited data

How the results depend on the processing

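Igfbp1 stayed at least 2-fold higher and A1bg at least 2-fold lower under each pseudocount, scaling and filter tried, and also passed 1.5-fold. At 3-fold 0 members were counted as higher and 0 as lower. The median log2 ratio of the 9 genes was −0.081 with a minimum mean of 50, where Socs2 dropped out, 0.015 with both libraries brought to one total, and 0.033 with Rn45s left out of that total. Of the 9 genes, 1, Igf1, took either sign. Of 54 values of single members, 8 moved beyond the counting interval, all under the last 2 scalings, and 10 of 107 list medians moved, 6 of them of the major urinary protein list, 2 of the hepatocyte list and 1 each of the cholangiocyte and erythroid lists. The medians of the IGF, female-biased, male-biased, sinusoidal endothelial, stellate and cholangiocyte lists took either sign. Scaling moved the median of all genes by at most 0.071 on the log2 scale. The background of 16 genes higher and 16 lower was 115 and 69 at 1.5-fold, 4 and 2 at 3-fold, 8 and 9 with a minimum mean of 50, 39 and 25 with a minimum of 1, and 44 and 26 without a filter, where the threshold or the number of genes itself differed. With a pseudocount of 10 it was 11 higher and 10 lower. No paired analysis was possible because each group had 1 pooled library. Counting error is small for the 9 genes, and differences between mice or pools were not measured.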
